A study of Mus musculus with 50 samples.

Results

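The genes described here are 10 subunits and receptors for glutamate, the main excitatory transmitter of primary sensory neurons: the AMPA receptor subunits Gria1, Gria2, Gria3 and Gria4, the kainate receptor subunits Grik1 and Grik5, the NMDA receptor subunits Grin1 and Grin2b, and the metabotropic receptors Grm4 and Grm7. They were chosen by name, out of 18193 genes that the array's annotation gives to probe sets with 1 gene symbol, and every probe set annotated to a member was used. Of the 10 genes, 9 had a probe set in that annotation, 21 probe sets in all; Grin1 was not analysed here.

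The study measured messenger RNA in dorsal root ganglia, the clusters of sensory nerve cell bodies beside the spinal cord, across inbred mouse strains of both sexes. All mice were wildtype, untreated and 2 months old. Each of the 25 strains had 1 array of RNA pooled from 3 males and 1 array of RNA pooled from 3 females, 50 Affymetrix arrays in all. The strains were AKR/J, BALB/CByJ, 129S1/Sv1mJ, BTBT T+tf/J, SJL/J, c57BL/6J, NZW/LacJ, BUB/BnJ, CBA/J, KK/HIJ, SM/J, PL/J, C58/J, RIIIS/J, NZO/HILtJ, DBA/2J, C3H/HeJ, NOD/LtJ, C57BR/cdJ, FVB/NJ, P/J, MRL/MpJ, SWR/J, A/J and NON/LtJ.

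AMPA and kainate receptors are ion channels built from 4 subunits that open when glutamate binds and carry fast excitatory current. NMDA receptors are channels that also need a co-agonist, and they combine Grin1 with a Grin2 subunit such as Grin2b. Metabotropic receptors signal through G proteins, and Grm4 and Grm7 belong to the group III receptors, which damp transmitter release from nerve endings. Sensory neurons release glutamate in the spinal cord and carry some of these receptors on their own membranes and central terminals.

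Levels are given as log2(intensity + 1), a scale on which 1 unit is a 2-fold change for bright probe sets and on which small values compress. The leading probe set of a gene is the one with the highest mean over all arrays, and it stands for the gene where genes are counted. A probe set was tested when it lay above 4 in at least 2 arrays, which left 15 of the 21 member probe sets and 8 of the 10 genes. The 6 member probe sets that never lay above 4 were all 4 probe sets of Grin2b, 1 of Gria4 (1421351_at) and 1 of Grm7 (1458861_at). Probe sets differ in how strongly they bind, so no level is set against that of another probe set. A strain mean is the mean of its male and female arrays, and its SD comes from the 2 arrays once sex means were removed (n = 2). With 1 pool per sex and strain, the limma p-values rest on the spread between the 2 pools of a strain, pooled over all strains. That spread was moderated across the probe sets tested, and the permutation p-values of correlations do not measure it. The number of arrays limits the precision.

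Several arrays stood apart. Xist, an X-chromosome transcript made in female cells, lay above 4 in 7 of the 25 male arrays, highest in male PL/J at 8.97, with Eif2s3y, a gene of the Y chromosome, at 6.52 there. Eif2s3y lay above 4 in 1 of the 25 female arrays, that of SM/J, at 6.82 beside an Xist level of 9.43. The difference between the 3′ and 5′ Gapdh probe sets, a sign of RNA length, was 0.60 in male BTBT T+tf/J and 0.34 in female P/J, against -0.73 to -0.09 in the other arrays. The lowest intensity of an array was 1.629 to 1.655 in males and 1.726 to 1.744 in females, so the sexes look normalized as separate sets. The labelled tissue held its markers: all 9 sensory neuron markers lay above 4 in 50 of 50 arrays (summed intensity 35408 to 44997). In the spinal cord and brain list, 9 of 12 genes never lay above 4 (summed intensity over all 12, 95.1 to 421). The 4 liver markers summed to 282 to 2720 in the arrays of DBA/2J, C58/J, FVB/NJ and C3H/HeJ, highest in female DBA/2J, against 21.8 to 50.5 in the other strains. The 5 skeletal muscle markers summed to 87.4 to 6201, highest in female SM/J. The part of either list in the values below was not tested. Fewer cells of a type and less RNA per cell cannot be told apart in such tissue.

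Grik1 codes for the kainate receptor subunit GluK1, the main kainate subunit of small sensory neurons. Its second probe set, 1439987_at, divided the strains into a high and a low set. In 12 strains both arrays lay between 6.36 and 8.09, in 9 strains both lay between 2.73 and 3.32, and 4 strains belonged to neither set. Among the highest strains, the male and female values were 8.09 and 7.60 in FVB/NJ, 7.73 and 7.67 in DBA/2J, 7.46 and 7.75 in SJL/J, 7.39 and 7.81 in SWR/J, 7.62 and 7.40 in A/J, and 7.50 and 7.33 in C3H/HeJ. They were 7.07 and 7.72 in c57BL/6J, 6.93 and 7.57 in BUB/BnJ, 6.41 and 7.46 in PL/J, 6.36 and 7.51 in BTBT T+tf/J, 7.13 and 6.54 in NOD/LtJ, and 6.91 and 6.48 in NON/LtJ. The sets were defined by both arrays lying below 4 or above 6, so a gap between them was fixed in advance. It ran from 3.32 to 6.36, and the arrays of RIIIS/J, NZO/HILtJ and NZW/LacJ lay inside it. In the low set, the male and female values were 3.32 and 3.00 in C57BR/cdJ, 3.28 and 2.96 in C58/J, 3.15 and 3.02 in MRL/MpJ, 2.89 and 3.10 in CBA/J, and 2.81 and 2.96 in 129S1/Sv1mJ. They were 2.80 and 2.95 in BALB/CByJ, 2.78 and 2.88 in P/J, 2.74 and 2.81 in AKR/J, and 2.73 and 2.81 in KK/HIJ. All of these lie below 4, so their order is not read.

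**Figure D1:**
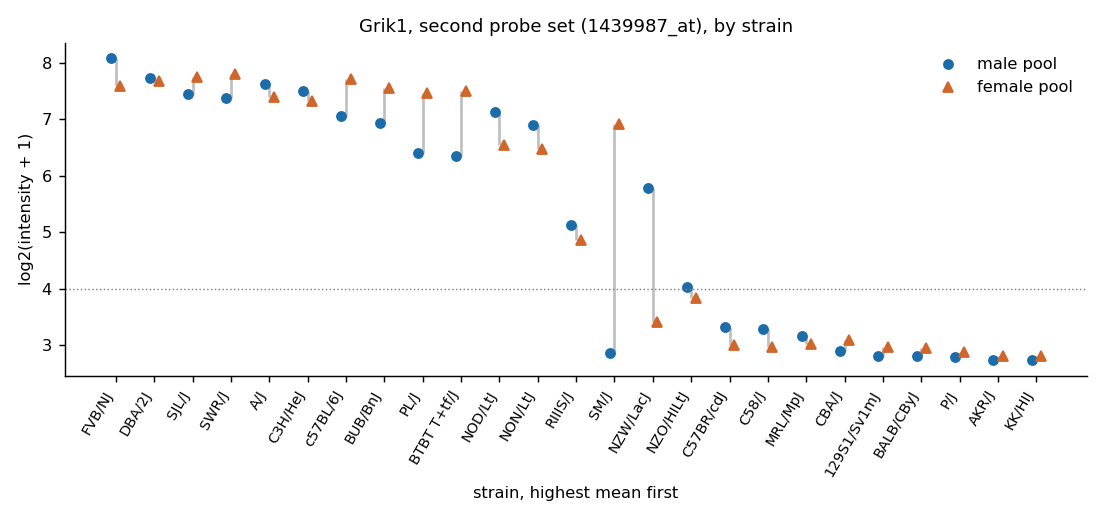
Level of the Grik1 probe set 1439987_at, log2(intensity + 1), in each of the 25 strains, ordered from the highest to the lowest strain mean. Circles are male pools and triangles female pools, joined by a line; the dotted line marks a level of 4. In 12 strains both arrays lie above 6, and in 9 both lie at or below 3.32. SM/J, NZW/LacJ and NZO/HILtJ have 1 array on each side of the dotted line.

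Of the 4 others, both arrays lay close together between the sets in RIIIS/J, with 5.13 in males and 4.86 in females. The same held for NZO/HILtJ, with 4.04 and 3.84, on either side of 4. In RIIIS/J both arrays were thus above the low strains and below the high ones. In SM/J the male array read 2.86 and the female array 6.92. In NZW/LacJ the male array read 5.78 and the female array 3.41, also between the sets but far apart. The 2 sexes of SM/J and of NZW/LacJ lay on opposite sides of 4. In both strains the higher array carried a marker of the other sex: Eif2s3y was 6.82 in female SM/J, against 3.01 to 3.46 in the other female arrays, and Xist was 5.27 in male NZW/LacJ, one of the 7 male arrays above 4. Xist also lay above 4 in male PL/J (8.97), BTBT T+tf/J (7.78), SWR/J (6.73), NON/LtJ (5.42), NOD/LtJ (5.19) and c57BL/6J (4.98). Both arrays of each of these strains lay in the high set. The part of these markers in the Grik1 values was not tested.

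Strain differences in this probe set passed the test across all probe sets (limma F test, range 5.08 between FVB/NJ at 7.85 ± 0.45 and KK/HIJ at 2.77 ± 0.04, SD, n = 2, adjusted p = 2.04e-09). Of 22205 probe sets tested, 24.7% were called for strain by the same rule, and 0.324% had a range at least this wide. Set against the level of 4 instead of the dim KK/HIJ value, FVB/NJ was 14.4-fold higher. It was thus at least 14.4-fold higher than KK/HIJ. Against the mean of the other 24 strains, 8 strains were called higher and 9 lower, with differences of at least 1 log2 unit and an adjusted p under 0.05. FVB/NJ showed the widest of the higher differences, 2.65 ± 0.50 (SE, adjusted p = 0.00138). The 9 lower differences ran from -2.64 to -2.24, and they are not ranked, since the 9 strains lay under the level of 4. Over all members, 10 of 375 such single-strain tests were called higher and 12 lower, where 0.497% and 0.644% of the tests over all probe sets were. Of these calls, 8 of the higher and 9 of the lower came from this 1 probe set. Nothing is read from the count about the other members.

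Over all strains, Pearson's r between the male and female arrays was 0.88 (permutation p = 1e-05, adjusted p = 0.000376 over all probe sets). Spearman's rho was 0.87 (permutation p = 1e-05, adjusted p = 0.00073), and without SM/J and PL/J Pearson's r was 0.96. The sets were drawn so that both arrays of a strain lie in the same one. Agreement on the order of strains inside a set was read only for the high set. Among its 12 strains Pearson's r was 0.22 (permutation p = 0.48, adjusted p = 0.48 over both measures) and Spearman's rho 0.25 (permutation p = 0.431, adjusted p = 0.48). No agreement between the sexes on the order of the high strains passed. Choosing strains with both arrays above 6 narrows the values compared, so the test says little about that order. Of the 24 pairs of neighbouring strains in the order of means, 5 differed beyond the spread of their arrays. These were NON/LtJ over RIIIS/J, NZO/HILtJ over C57BR/cdJ, and 3 pairs inside the low set, whose order is not read.

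No other probe set followed the same division closely. The highest correlation of strain means with any of the other 22204 probe sets tested was 0.71, for a probe set of Rragd, and the next was 0.59, for one of Urah. Among genes called for strain by their leading probe set, the nearest were Irf1 (r = 0.58), Slc3a2 (r = 0.54) and Stmn1 (r = 0.54), looked up after the values of the probe set were seen. Genes next to Grik1 on its chromosome were taken from the RefSeq annotation of GRCm38.p6, up to 20 on each side among genes with a probe set. Of these, 14 had a tested probe set, from Mrpl39 to Bach1 in order of gene start. They were not counted by side of Grik1, so it is not shown that both sides were covered. Their 26 tested probe sets had correlations of -0.55 to 0.48 with it.

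The leading Grik1 probe set, 1427676_a_at, gave a different order. It lay well above 4 in all 50 arrays, and the P/J arrays stood alone at the bottom. In P/J it read 8.64 in males and 9.03 in females, against 9.81 to 10.84 in the other 48 arrays, with a median of 10.34. No array of another strain was as low as either. P/J averaged 8.84 ± 0.44 (SD, n = 2) and differed from the mean of the other strains by -1.50 ± 0.16 (SE, limma, adjusted p = 1.47e-07), 2.83-fold lower. The strain test was passed (range 1.74, adjusted p = 0.00106), and it rested on P/J: without that strain the range was 0.56 and the adjusted p = 0.641. The male to female correlation of 0.65 (permutation p = 0.0233, adjusted p = 0.101; rho 0.09, p = 0.674) was 0.07 without P/J and NZW/LacJ, the 2 strains farthest from the median in males.

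**Figure D2:**
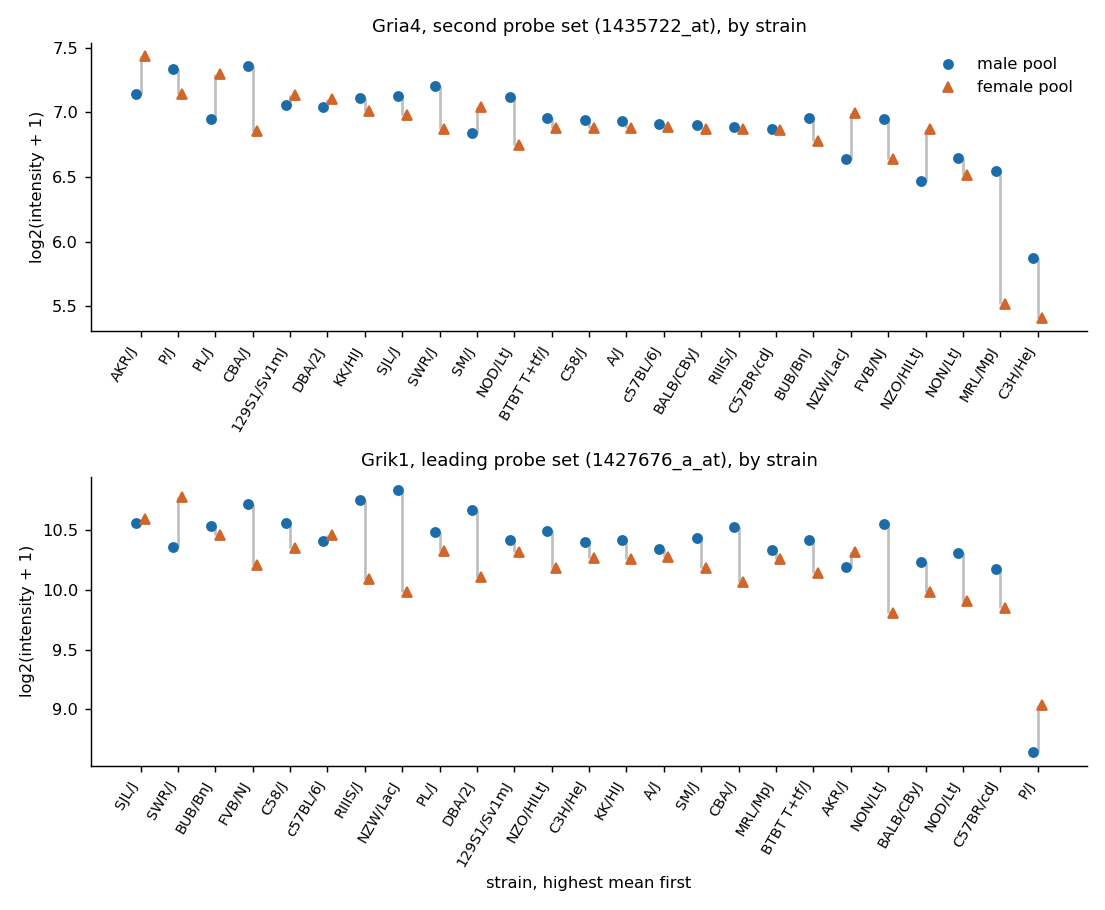
Levels of Gria4 1435722_at (top) and Grik1 1427676_a_at (bottom), log2(intensity + 1), by strain from the highest to the lowest mean, with male pools as circles and female pools as triangles. C3H/HeJ lies lowest for Gria4 at 5.87 and 5.41, and P/J lies lowest for Grik1 at 8.64 and 9.03, below every array of the other strains.

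The genes most like the leading Grik1 probe set in strain means, among 2929 genes called for strain, were Rpn1 (r = 0.92), Slc35e1 (r = 0.90) and Samd9l (r = 0.87). Without P/J these correlations were 0.30, 0.33 and 0.06, so the likeness was carried by that strain. The female P/J array had the second highest Gapdh 3′ to 5′ difference, while the male one was at -0.65, and both were low for Grik1. In P/J the 9 sensory neuron markers summed to 43418 in males and 44237 in females, against 35408 to 44997 in the other arrays. The 2 Grik1 probe sets had a correlation of 0.39 over the 25 strain means. P/J was low in both, and the other 8 strains of the low set in 1439987_at lay between 10.01 and 10.45 in 1427676_a_at. Which part of the transcript each probe set reads is not given in the sources used here, and a change of transcript level and a strain's own sequence under the probes cannot be told apart from these values.

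Gria1, the AMPA subunit GluA1, differed among strains in its leading probe set 1448972_at. MRL/MpJ was lowest and BUB/BnJ highest. MRL/MpJ read 3.38 in males and 3.21 in females, against 3.43 to 5.70 in the other 48 arrays, with a median of 4.34. BUB/BnJ read 5.70 and 5.29, and RIIIS/J read 5.43 and 5.29. Both arrays of MRL/MpJ were thus under those of all other strains, and the male BUB/BnJ array was over them. The strain test was passed (range 2.20, limma, adjusted p = 0.000162), a range that 5.26% of all probe sets reached. Against the other 24 strains, BUB/BnJ was higher by 1.15 ± 0.24 (SE, adjusted p = 0.00457), and RIIIS/J was higher by 1.01 ± 0.24 (adjusted p = 0.0143). MRL/MpJ differed by -1.15 ± 0.24 (adjusted p = 0.00449). The call of RIIIS/J was lost with a pseudocount of 16 (0.64), after quantile normalization (0.95), without the strain MRL/MpJ (0.96) and in 12 of 50 fits without 1 array. With a pseudocount of 16 BUB/BnJ (0.74) and MRL/MpJ (-0.59) also lay under 1 log2 unit. BUB/BnJ lost its call without its male array, and MRL/MpJ without either of its arrays. As MRL/MpJ lay under the level of 4, BUB/BnJ was set against that level and was 2.82-fold higher. It was thus at least 2.82-fold higher than MRL/MpJ.

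**Figure D3:**
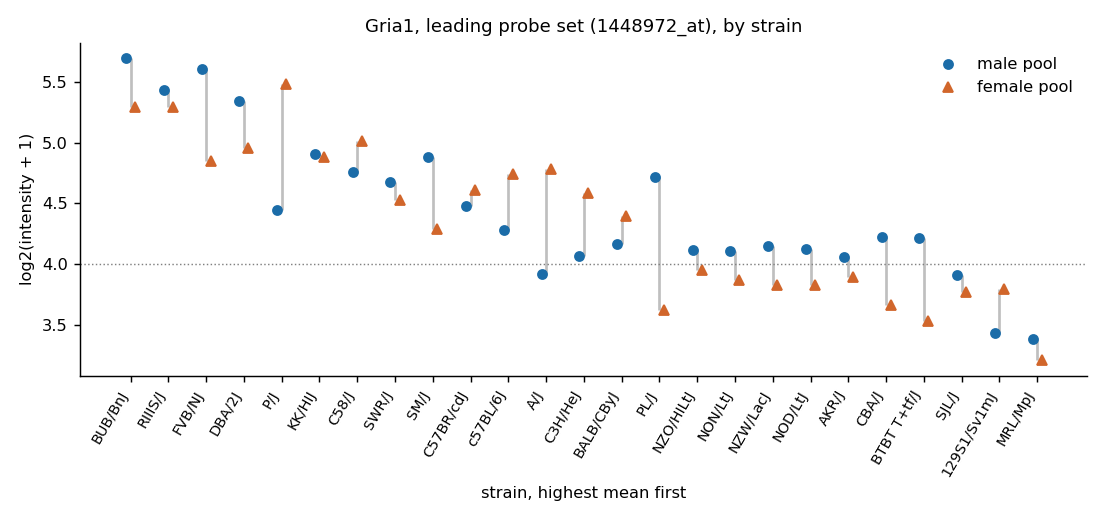
Level of Gria1 1448972_at, log2(intensity + 1), in each strain from the highest to the lowest mean. Circles are male pools, triangles female pools, and the dotted line marks a level of 4; BUB/BnJ at 5.50 and MRL/MpJ at 3.29 are the ends of the order of strain means.

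From the top, the Gria1 strain means were 5.50 ± 0.22 in BUB/BnJ, 5.36 ± 0.03 in RIIIS/J, 5.23 ± 0.46 in FVB/NJ, 5.15 ± 0.21 in DBA/2J, 4.97 ± 0.80 in P/J, 4.89 ± 0.05 in KK/HIJ and 4.88 ± 0.25 in C58/J (SD, n = 2 each). They were 4.60 in SWR/J, 4.59 in SM/J, 4.54 in C57BR/cdJ, 4.51 in c57BL/6J, 4.35 in A/J, 4.33 in C3H/HeJ, 4.28 in BALB/CByJ, 4.17 in PL/J and 4.03 in NZO/HILtJ. The remaining means lay at or under 3.99, in NON/LtJ, NZW/LacJ, NOD/LtJ, AKR/J, CBA/J, BTBT T+tf/J, SJL/J and 129S1/Sv1mJ, with MRL/MpJ last at 3.29 ± 0.05. The order is a gradual one, and only C58/J over SWR/J and 129S1/Sv1mJ over MRL/MpJ were neighbours whose arrays did not overlap. The other 22 pairs of neighbours did not differ beyond their spread. Over all 15 tested member probe sets, 14 of 360 neighbour pairs (3.89%) were so separated, and over all probe sets 3.45% were.

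The male and female arrays agreed on the Gria1 order (r = 0.68, permutation p = 0.00015, adjusted p = 0.0026; rho 0.62, permutation p = 0.00113, adjusted p = 0.0153). The correlation was 0.63 without BUB/BnJ and FVB/NJ, the strains farthest from the median in males, and 0.69 without MRL/MpJ and P/J, the strains farthest from it in females. The second Gria1 probe set, 1435239_at, ran in the same direction, with r = 0.69 between the strain means of both probe sets, where the median over 5048 genes with a leading and a next tested probe set was 0.35. MRL/MpJ was lowest there too, at 3.44 in males and 2.90 in females, and P/J was highest, at 4.10 and 5.69. Its strain test was not passed (range 1.72, adjusted p = 0.0839). Nearest to the leading Gria1 probe set in strain means were Fgf12 (r = 0.74), Trim2 (r = 0.70) and Zbtb20 (r = 0.67), and leaving out SM/J and PL/J gave 0.76, 0.73 and 0.67.

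**Figure D4:**
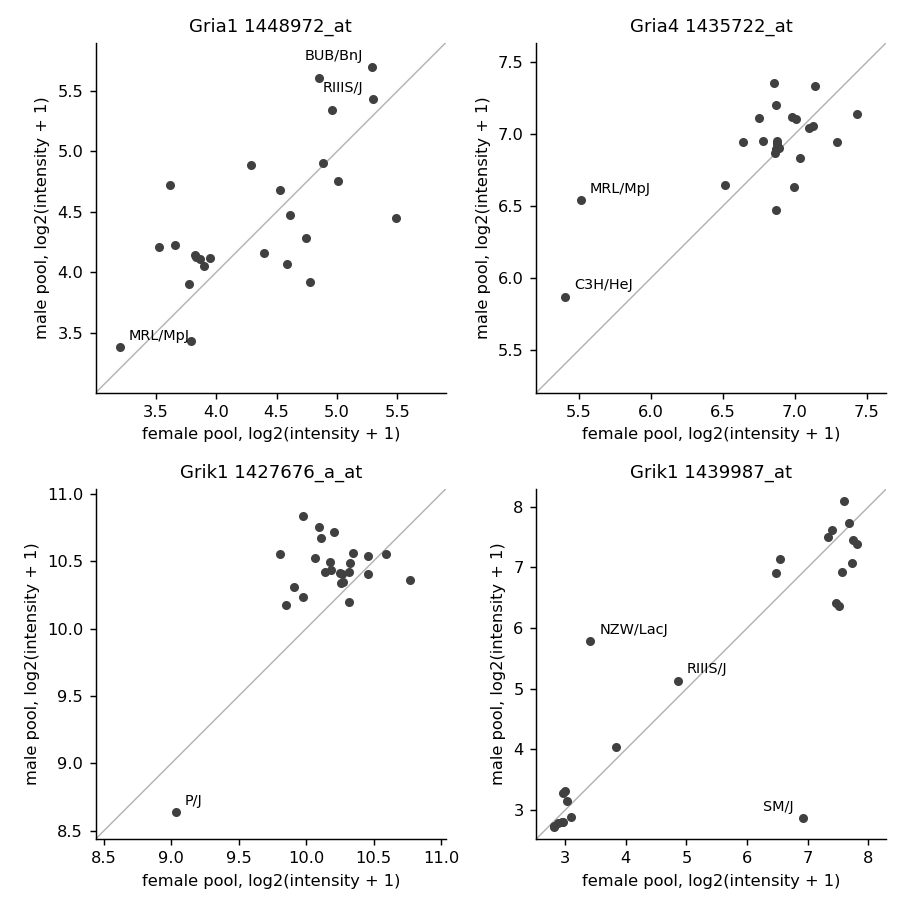
Male pool (vertical axis) against female pool (horizontal axis), both log2(intensity + 1), for 4 member probe sets, 1 point per strain, with the line of equal values. Strains named in the text are labelled; in Grik1 1439987_at, SM/J and NZW/LacJ lie away from the line, and in Grik1 1427676_a_at P/J lies apart from the other strains.

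Over the 15 tested member probe sets, 3 had a male to female correlation over the 25 strains with an adjusted p under 0.05: those of Gria1 (1448972_at), Gria4 (1435722_at) and Grik1 (1439987_at). By Spearman's rho it was 2, without Gria4. Of all 22205 probe sets tested, 17% passed by Pearson's r and 3220 probe sets by Spearman's rho. The median correlation was 0.34 over the member probe sets and 0.24 over all.

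Gria4, the AMPA subunit GluA4, gave 2 readings that did not go together. In its second probe set, 1435722_at, C3H/HeJ was lowest, with 5.87 in males and 5.41 in females, against 5.52 to 7.44 in the other 48 arrays and a median of 6.92. MRL/MpJ came next, with 6.54 and 5.52, and only its female array lay near those of C3H/HeJ. The other 23 strain means lay between 6.58 ± 0.03 in NON/LtJ and 7.29 ± 0.27 in AKR/J (SD, n = 2). C3H/HeJ differed from the other strains by -1.28 ± 0.16 (SE, limma, adjusted p = 2.97e-06), 2.42-fold lower. The strain test was passed (range 1.65, adjusted p = 0.00039). The male to female correlation was 0.73 (permutation p = 0.00053, adjusted p = 0.0066; rho 0.42, p = 0.039, adjusted p = 0.144), and 0.55 without C3H/HeJ and NZO/HILtJ, the strains farthest from the median in males. Without C3H/HeJ and MRL/MpJ, the strains farthest from it in females, it was 0.32.

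In the leading Gria4 probe set, 1440891_at, C3H/HeJ was not low: it read 7.53 in males and 7.02 in females, against a median of 7.03 in the other arrays. P/J was lowest there at 6.48 and 5.54, AKR/J was highest at 7.86 and 7.73, and the strain test was not passed (range 1.78, adjusted p = 0.232). The correlation between both probe sets was -0.04. The large myelinated neuron markers had their lowest mean in C3H/HeJ, -0.21 from the average of the strains over 9 genes. Their summed intensity was 37993 in male and 34087 in female C3H/HeJ, against 34540 to 52172 in the other arrays. The 9 sensory neuron markers also lay low there, at -0.15. They summed to 37759 in males and 35408 in females, against 35838 to 44997 in the other arrays. The lists of auxiliary subunits and scaffold proteins, described below, had their lowest means in C3H/HeJ too, at -0.29 and -0.27. The non-peptidergic nociceptor markers went the other way, at 0.26. The part of these cells and lists in the Gria4 values was not tested. Nearest to 1435722_at among called genes, looked up after its values were seen, were Dlgap1 (r = 0.76), Syt1 (r = 0.70) and Copz2 (r = 0.68).

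Gria2 codes for GluA2, the subunit whose edited form makes AMPA channels nearly impermeable to calcium. Of its 3 probe sets, 1434146_at passed the strain test (range 1.56, limma, adjusted p = 0.0283). RIIIS/J was highest, with 6.14 in males and 6.85 in females, A/J next with 6.11 and 6.65, and MRL/MpJ lowest with 5.05 and 4.83. No neighbours in this order differed beyond their spread. No single strain was called, and the call was lost without either array of RIIIS/J or of A/J, at adjusted p from 0.0523 to 0.07.

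In the leading Gria2 probe set, 1421970_a_at, RIIIS/J was again highest, at 6.82 in males and 6.74 in females, against 5.47 to 6.90 in the other 48 arrays. NOD/LtJ was lowest at 6.06 and 5.47, and the range of 1.01 did not pass (adjusted p = 0.0901). The strain means of these 2 probe sets had a correlation of 0.64. The third, 1453098_at, followed them less closely, with correlations of 0.27 and 0.14, and did not pass (range 1.07, adjusted p = 0.142).

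**Figure D5:**
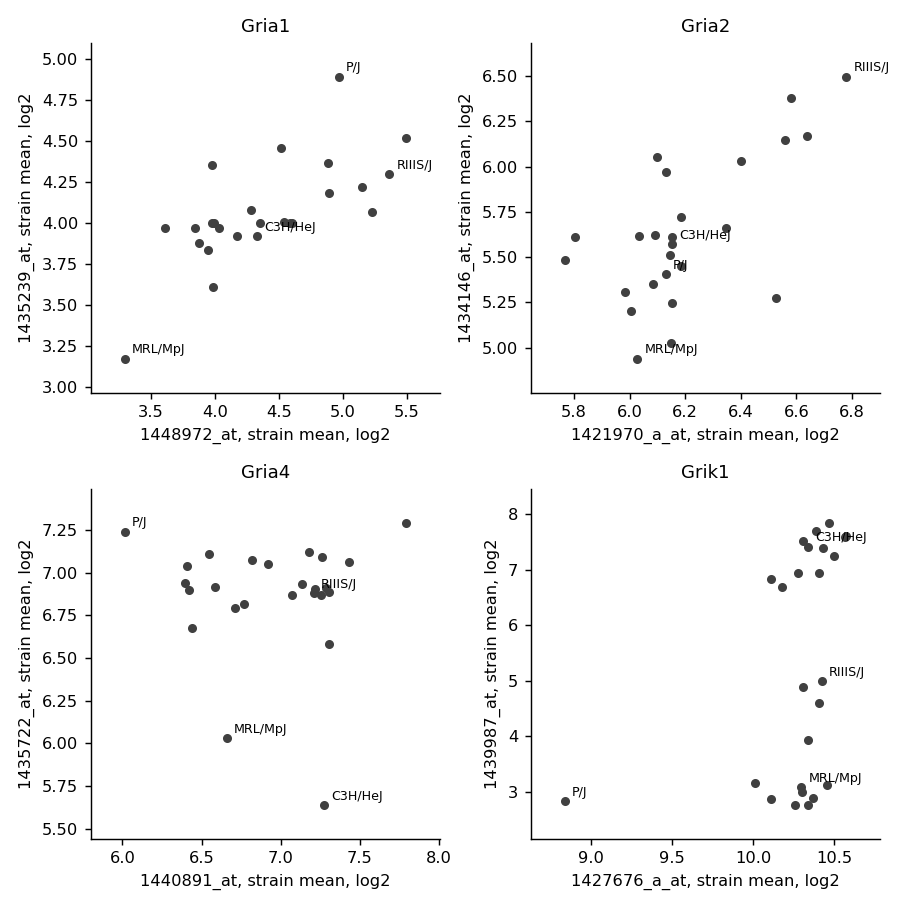
Strain means of a second probe set (vertical axis) against those of the leading probe set (horizontal axis) of Gria1, Gria2, Gria4 and Grik1, log2 scale, 1 point per strain. The correlations over 25 strains are 0.69, 0.64, -0.04 and 0.39; MRL/MpJ, RIIIS/J, C3H/HeJ and P/J are named.

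Gria3, the AMPA subunit GluA3, was not called for strain by either probe set. The leading one, 1434728_at, lay between 5.66 and 7.28 over the arrays, with a median of 6.80 (range of strain means 1.04, adjusted p = 0.32). PL/J was highest, with 7.28 in males and 7.21 in females, and its arrays did not overlap those of SWR/J, the next strain. MRL/MpJ was lowest, but its arrays were far apart, at 6.76 and 5.66. The second probe set, 1420563_at, had a range of 0.86 (adjusted p = 0.332) and a correlation of 0.24 with the leading one. In both, the sexes agreed weakly, with correlations of 0.14 and 0.15.

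Taking the 4 leading AMPA probe sets as one mean deviation from the average of the strains, RIIIS/J stood highest at 0.50, followed by BUB/BnJ at 0.34, and MRL/MpJ lowest at -0.53. Gria1 had the widest part in each. BUB/BnJ differed from the other strains by 1.15 for Gria1, and by -0.02, 0.14 and 0.14 for Gria2, Gria3 and Gria4, so Gria1 carried its value. In the same order RIIIS/J differed by 1.01, 0.60, 0.17 and 0.28. MRL/MpJ differed by -1.15, -0.18, -0.58 and -0.29, with its Gria1 level under 4. By array, RIIIS/J lay at 0.42 in males and 0.57 in females, the highest of each sex, and BUB/BnJ at 0.42 and 0.26. MRL/MpJ lay at -0.82 in females, the lowest female array, and at -0.24 in males, where 4 strains lay lower. The summed intensity of the 4 probe sets was 327 in male and 187 in female MRL/MpJ, against 212 to 452 in the other arrays. MRL/MpJ was the lowest strain in 5 of the 15 tested member probe sets, 4 of them AMPA, and it was lowest in 6.44% of all probe sets tested. These probe sets share the same 2 MRL/MpJ arrays and in part the same genes, so the 5 are not independent. In MRL/MpJ the sensory neuron markers lay at -0.07 over 9 genes, and their summed intensity was 38569 in males and 41233 in females, against 35408 to 44997 elsewhere. The 5 tested macrophage markers lay at 0.64, and all 6 of that list summed to 470 in males and 901 in females, against 255 to 1457. The 3 tested spinal cord and brain markers lay at -0.53, and all 12 of that list summed to 109 and 111, against 95.1 to 421. Of these 12, Olig1, Olig2, Mog, Opalin, Hapln2, Gad2, Slc32a1, Slc6a5 and Chat never lay above 4. In RIIIS/J the large myelinated neuron markers were highest, at 0.20. Of that list Calb1 and Cntnap2 were highest in RIIIS/J, at 9.43 and 9.53, against means of 8.56 and 9.06 over all arrays. Ntrk2 of the same list was lowest there, at 8.26 against 8.58. The markers of non-peptidergic nociceptors and of endothelium were lowest in RIIIS/J, at -0.37 and -0.41. The Schwann cell markers were lowest too, at -1.41 over 5 genes. That value was carried by Ncmap, a myelin protein gene, at 2.85 in RIIIS/J: without it the other 4 genes lay at -0.12. The 5 genes summed to 28423 in male and 25230 in female RIIIS/J, against 22505 to 34097 in the other arrays. The part of these lists in the AMPA values was not tested.

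By leading probe set, 2 of the 8 tested members, Gria1 and Grik1, were called for strain, where 26.1% of 11204 genes were. By any of their probe sets it was 4 of 8, with Gria2 and Gria4, where 33.6% of 11231 genes were. Counted by probe set it was 5 of 15, against 24.7% of all probe sets. The median range of the 15 was 1.07, and over all probe sets it was 0.87. The members are few, and nothing is read from these counts about the receptors as a group.

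Grik5 codes for GluK5, which forms kainate channels only together with another subunit such as GluK1. Its probe set was dim, above 4 in 6 of 50 arrays, and its strain range of 0.97 did not pass (adjusted p = 0.101). P/J was highest, with 4.47 in males and 3.81 in females, and A/J lowest with 3.62 and 2.73. The call was reached without male P/J (adjusted p = 0.0407) or without female BTBT T+tf/J (adjusted p = 0.00824).

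Grin2b, the GluN2B subunit of NMDA receptors, stayed under 4 in every array with all 4 probe sets. The brightest, 1442370_at, ran from 2.86 to 3.12, and the others stayed between 2.16 and 2.67. Its values were not tested, and they set only an upper limit on what these probe sets could read. Among the other NMDA subunits, Grin2a, Grin2c, Grin2d and Grin3b also never lay above 4, whereas Grin3a lay above it in all 50 and did not pass the strain test (range 0.85, limma, adjusted p = 0.296).

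Grm7, a group III receptor of presynaptic terminals, was not called for strain. Its leading probe set, 1443119_at, lay between 8.02 and 9.34, with a median of 8.68, and its range of 0.72 over strains had an adjusted p = 0.701. BTBT T+tf/J was highest, at 8.93 in males and 9.07 in females, and MRL/MpJ lowest, at 8.42 and 8.13. The correlation between the sexes was -0.09. The second probe set, 1459532_at, was above 4 in 5 arrays, highest in BALB/CByJ with 3.61 and 4.22, and did not pass (range 0.94, adjusted p = 0.127). Grm4, another group III receptor, was above 4 in 5 arrays, and its range of 0.82 did not pass (adjusted p = 0.412). Its male BTBT T+tf/J array, at 4.97, was the highest, and the female one read 3.09. That male array also had the highest 3′ to 5′ Gapdh difference of the series, 0.60, and an Xist level of 7.78.

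Sex differences were read from the same fit, as male minus female. Of the 15 member probe sets, 4 were called higher in males and 3 lower, where 23.6% of all probe sets were called higher and 34% lower. For Grik5 the male arrays lay between 3.62 and 4.73, with a median of 3.96, and the female arrays between 2.65 and 3.81, with a median of 2.73. The female P/J array alone reached into the male values (difference 1.23 ± 0.05, SE, limma, adjusted p = 1.21e-17). For Grm4 the male values were 3.34, 3.85 and 4.97 as lowest, median and highest, against 2.78, 3.09 and 3.76 in females (0.79 ± 0.06, adjusted p = 1.14e-11). For Gria3 1420563_at they were 4.95, 5.21 and 5.79 in males and 3.91, 4.47 and 4.89 in females, without overlap (0.76 ± 0.06, adjusted p = 4.39e-11). The leading Gria3 probe set did not follow, at -0.01 ± 0.08 (adjusted p = 0.938).

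The leading Grik1 probe set was higher in males by 0.22 ± 0.06 (SE, limma, adjusted p = 0.00293), with medians of 10.42 in males and 10.21 in females. Lower in males were Gria2 1434146_at (-0.45 ± 0.10, adjusted p = 0.000267), Gria1 1435239_at (-0.41 ± 0.09, adjusted p = 0.000268) and Grm7 1443119_at (-0.22 ± 0.07, adjusted p = 0.00874). The other probe sets of Gria1 and Gria2 did not pass, at 0.10 for Gria1 1448972_at and at -0.05 and -0.04 for the other two of Gria2. The sexes and the sets in which the arrays look normalized cannot be told apart, so these differences are no measure of sex alone.

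Of the other glutamate receptor subunits and receptors, 4 of the 9 ionotropic genes with a probe set were tested, Grik2, Grik3, Grik4 and Grin3a, and none was called for strain (limma, adjusted p of 0.165 to 0.998). Of the other metabotropic receptors, Grm2, Grm3 and Grm5 never lay above 4, and Grm8 was tested but not called (range 1.27, adjusted p = 0.145). RIIIS/J had its highest mean, at 5.63, and SWR/J its lowest, at 4.36.

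Of 6 tested auxiliary subunits, 2 were called for strain, where 26.1% of all 11204 genes were. The lists are short, and nothing is read from their counts. Cacng5, a transmembrane AMPA receptor regulatory protein, ranged over 1.71 between 129S1/Sv1mJ at 6.58 and C3H/HeJ at 4.87 (adjusted p = 0.012). Neto2, an auxiliary protein of kainate receptors, ranged over 1.14 between C58/J at 7.43 and DBA/2J at 6.29 (adjusted p = 0.00118). C3H/HeJ, low in one Gria4 probe set but not in the leading one, was also lowest for Cacng5. It was lowest for the mean of the 6 auxiliary genes as well, at -0.29. A tie between Cacng5 and Gria4 was not tested. Of 11 tested scaffold proteins, only Dlg2, which anchors receptors at synapses as PSD-93, was called (range 1.98, adjusted p = 0.0137), with BUB/BnJ highest at 6.62 and MRL/MpJ lowest at 4.64. Both are also the ends of the Gria1 order, but Dlg2 is 1 of the 11 scaffold genes looked at. Of all probe sets tested, BUB/BnJ was highest in 3.81% and MRL/MpJ lowest in 6.44%. A tie between Dlg2 and Gria1 was not tested.

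Of 9 tested genes of glutamate transport and metabolism, 3 were called, beside the same 26.1% over all genes. Slc17a7, the vesicular transporter VGLUT1 that large sensory neurons use to load glutamate, ranged over 2.06 between RIIIS/J at 6.91 and A/J at 4.85 (adjusted p = 0.00553). Glul, the glutamine synthetase of satellite glia, ranged over 1.23 between NON/LtJ at 10.90 and SJL/J at 9.67 (adjusted p = 0.00025). Of the RNA editing enzymes that act on Gria2 and other transcripts, Adar and Adarb1 were tested and not called (adjusted p = 0.154 and 0.602). The median range was 0.93 in the other ionotropic and in the auxiliary genes, 0.68 in the scaffold proteins and 0.88 in the transport genes, and 0.82 over all 11204 genes.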

How the data were processed

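The deposited values were Affymetrix probe set intensities on a linear scale, 1 array per pool, made by the authors, who used GCRMA and R 2.6.2 (per the submitters' processing notes); background and normalization settings are not given in the sources used here. Of 45101 probe sets, 64 controls were left out. Gene names came from the platform annotation, where 34945 probe sets carry 1 symbol, 932 several and 9160 none. From the intensities, log2(intensity + 1) was computed, and 22205 probe sets above 4 in at least 2 arrays were tested. A linear model with strain and sex was fitted to all of them with limma 3.58.1 (R 4.3.3), giving an F test over strains, male minus female, and each strain minus the mean of the other 24. P-values were adjusted by Benjamini-Hochberg over all tests of a kind, with 0.05 as threshold and, for single strains, at least 1 log2 unit. Male to female correlations over strains were tested with 100000 permutations (two-sided, smallest p 1e-05), adjusted over all probe sets. Neighbouring strains differ beyond their spread where both arrays of one, after sex means were removed, exceed both of the other. The fits were tested on simulated data. Genes of the other lists and markers were named where called, at most 2 by widest range in each list. For a member called by its leading probe set, the 3 called genes nearest by correlation of strain means were named; other such genes were looked up after values were seen. Members and lists were chosen with earlier results of these data known. Alternatives were other pseudocounts and filters, quantile normalization, no sex term, and leaving out arrays or strains; leaving out the strains farthest from the median in females was added after seeing the data.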

Additional observations from a re-analysis of the deposited data

How the results depend on the processing

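Strain and sex calls of the members were recomputed under each alternative. Of 22205 probe sets, 5475 were called for strain in the fit reported, 2752 without the sex term, and 4805 to 8304 with 1 array left out, the highest without male P/J. Sex calls numbered 12779, 23777 with no filter on dim probe sets (45037 tested), and 12416 to 13048 without 1 array. Single-strain calls numbered 6335, 3492 with a pseudocount of 16, and 6076 to 8447 without 1 array. Member genes called by their leading probe set numbered 2; they were 4 by any probe set, 1 without the strain P/J (chosen after seeing the data), and 2 to 4 without 1 array, the 4 without female BTBT T+tf/J. The strain calls of Gria1 1448972_at, Gria4 1435722_at and Grik1 1439987_at were kept under every alternative in which they were fitted. Gria2 1434146_at was lost with no filter (adjusted p = 0.0804), with no sex term (0.398) and without either array of RIIIS/J or A/J (limma, up to 0.07). Grik1 1427676_a_at was lost without the male P/J array (adjusted p = 0.0555) and without the strain (0.641). Without 1 array some probe sets gained a call: Gria1 1435239_at without male c57BL/6J (adjusted p = 0.0421), P/J (0.00831) or MRL/MpJ (0.0348); Gria2 1421970_a_at without either array of C3H/HeJ (0.0262 and 0.0301) or male NOD/LtJ (0.0496); Gria4 1440891_at without male SWR/J (0.0267); Grik5 without male P/J (0.0407) or female BTBT T+tf/J (0.00824); Grm4 without female BTBT T+tf/J (0.0111); Grm7 1459532_at without male NZW/LacJ (0.0457) or female PL/J (0.0185). Gria2 1421970_a_at also gained it without the strain C3H/HeJ (0.0317, chosen after seeing the data) and Grm7 1459532_at without SM/J and PL/J (0.0497). With a pseudocount of 16 the Gria1 differences of BUB/BnJ, RIIIS/J and MRL/MpJ were 0.74, 0.64 and -0.59, under 1 log2 unit. RIIIS/J was also under it after quantile normalization (0.95) and without MRL/MpJ (0.96). The call of RIIIS/J for Gria1 fell under 1 log2 unit or the threshold in 12 of 50 such fits. Calls of MRL/MpJ (adjusted p up to 0.0859) and BUB/BnJ (0.143) for Gria1 were lost when one of their own arrays was left out, as were most single-strain calls of Grik1 1439987_at. No member's sex difference changed its call, and none that was called turned its sign. Among those not called, the sign turned without 1 array for Gria3 1434728_at (-0.05 to 0.03), Grik1 1439987_at (-0.24 to 0.03) and Grm7 1459532_at (-0.004 to 0.09), and after quantile normalization for Gria2 1453098_at (0.01). Where no cause is named above, the cause was not tested. Levels near or under 4 limit what Grin2b, Grik5, Grm4 and the low strains of Grik1 1439987_at can show. The replicate number of an array within a strain stands for its sex, so the fit with the sex term is the paired one and the fit without it, given above, is the one with no block.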
